A study of Arabidopsis thaliana with 48 samples.

Results

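This comparison sets inflorescences of Arabidopsis thaliana sampled 5 days after the first dexamethasone treatment against inflorescences sampled 1 day after it. It uses 4 biological replicates of day 5 and 4 of day 1, which are 8 of the 24 samples and 16 of the 48 sequencing runs of the series, and the 2 runs of each sample were summed. The samples were chosen by their time labels alone. All of them, on both days, carry the pAP1:AP1-GR transgene in an ap1 cal mutant of the Col-0 background and had received 2 µM dexamethasone. Plants grew at 21 °C with 16 h of light and 8 h of darkness. The first application was 8 h after lights on and the later daily ones were 4 h after lights on. Both days were therefore induced, and an offset of the day 0 samples plays no part in the contrast. The later day had also seen more applications, which cannot be told apart from the time itself, and a course without dexamethasone was not analysed here. The transgene is driven by the AP1 promoter, so its product is present where that promoter is active, and AP1 reads cannot separate it from the mutated gene of the line. The tissue is the whole cauliflower-like inflorescence. In such bulk samples fewer cells of a type and less RNA per cell cannot be told apart.

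In the ap1 cal mutant, floral meristems are not specified and the shoot tip piles up inflorescence-like meristems. AP1 is a MADS-domain transcription factor, and its fusion to the hormone-binding domain of the glucocorticoid receptor stays out of the nucleus until dexamethasone is given, after which many young flowers start at about the same time. In the classic model of the flower, A, B, C and E class genes specify sepals, petals, stamens and carpels in concentric whorls, while WUS and CLV3 maintain the stem cells from which these organs form.

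The 8 samples held between 26.7 M and 27.9 M counts each, and 21803 to 22156 genes were detected in each of them. Levels are given as CPM, counts per M counts of the effective library size, and differences as log2 fold changes of day 5 over day 1 with their standard errors (SE). Differences were tested over 19747 genes with the quasi-likelihood method of edgeR and Benjamini-Hochberg adjustment, and a gene is called at adjusted p under 0.05. Nothing in the labels beyond the replicate number says that the replicates came from separate plants, so the p-values measure the spread between samples of a day. That spread was estimated over all 24 samples of the series, day 0 included, while the fold changes compare days 5 and 1. Day 5 replicate 1 stood apart from the other libraries. On component 2 of a principal component analysis of the 8 libraries, which held 14.1% of the variance, it lay at 58.03, against -26.13 to -9.93 for the other day 5 libraries and -5.52 to 2.09 for the day 1 libraries. Component 1, with 66.2% of the variance, separated the days, with day 5 at 49.53 to 54.91 and day 1 at -57.28 to -43.83. Day 5 replicate 1 was the highest of its day in 35.1% of the tested genes and the lowest in 37.4%. Results that rest on it are given with and without it. Gene lists of roles and cell types and the genes named from them were chosen with earlier results of these data known, and list members beyond the 4 with the smallest p-values and those that moved against their list were picked after their values were seen.

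Between day 1 and day 5, 40.7% of the tested genes changed, and large changes were mostly rises. Of 19747 genes 4325 (21.9%) were higher and 3707 (18.8%) lower at day 5. These shares are the background for the counts of every gene list below. The rises made up 53.8% of the calls, and 36.8% of them with library totals in place of TMM scaling. Among called genes the median size of the change was 0.50 on the log2 scale, while the median over all tested genes was -0.01. At least 2-fold higher were 1708 genes (8.65%) and at least 2-fold lower were 414 (2.1%), and at least 8-fold changes numbered 253 rises and 38 falls. Values of the 2 days did not overlap in 3805 genes that were higher (19.3%) and 3661 that were lower (18.5%). Calls that held in each of the 8 fits that leave out 1 library numbered 5787 (29.3%), of which 3352 were higher and 2435 lower. Without day 5 replicate 1 the call was lost in 99 of the genes that were at least 2-fold higher.

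The 10 largest rises included 3 genes of jasmonate metabolism, 2 of synthesis and 1 of inactivation. They were taken among genes with a symbol of their own, a mean of at least 5 CPM on the higher day, values without overlap and a call in each of the 8 fits that leave out 1 library, which 1309 rises and 862 falls met. EIR1 (AT5G57090, chromosome 5, 23100516 to 23105228), also known as PIN2, encodes an auxin efflux carrier known from root gravitropism. Its levels were 13.9, 11.5, 16.7 and 13.4 CPM at day 5, against 0.104, 0.107, 0.0719 and 0.0363 CPM at day 1 (log2 fold change 7.36, SE 0.31, edgeR adjusted p = 2.49e-13). LEA7 (AT1G52690, chromosome 1, 19619724 to 19621534), a late embryogenesis abundant protein gene, stood at 11.4, 18.2, 19.2 and 22.6 CPM at day 5, against 0.0694, 0.0357, 0.324 and 0.0726 CPM at day 1 (log2 fold change 7.11, SE 0.65, edgeR adjusted p = 1.5e-08). RAP2.6 (AT1G43160, chromosome 1, 16263805 to 16264945), an ERF-type transcription factor that responds to stress hormones, had 77.3, 50.2, 51.3 and 47.9 CPM at day 5, against 0, 0.214, 1.29 and 0.363 CPM at day 1 (log2 fold change 6.92, SE 0.73, edgeR adjusted p = 1.05e-07). In each of these 3 genes the lowest day 5 library lay far above the highest day 1 library, and day 5 replicate 1 was lowest for LEA7 and highest for RAP2.6. The other genes were AOC1 (log2 fold change 7.08) and AOC2 (6.16) of jasmonate synthesis and JRG21 (6.66), a jasmonate-inactivating oxygenase. With them came the glycosyltransferase gene UGT76E12 (7.08), the nitrilase gene NIT2 (6.61), the alcohol dehydrogenase gene ELI3-2 (6.51) and the cuticle regulator SHN1 (5.80). The highest edgeR adjusted p of any of the 10 with 1 library left out was 7.3e-05, and their range of 5.80 to 7.36 became 5.96 to 7.36 without day 5 replicate 1. Without day 1 replicate 3 the change was 8.13 for LEA7 and 8.19 for RAP2.6, and without day 1 replicate 4 it was 8.12 for UGT76E12. The daily means of all 10 were higher at each step from day 1 to day 5. AOC1, AOC2 and NIT2 have near copies with which reads may be shared.

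The 10 largest falls chosen by the same rule were smaller, between -2.84 and -1.85, and included genes of organ founder cells and of the floral transition. DRNL (AT1G24590, chromosome 1, 8714365 to 8715378), an AP2-type factor that marks founder cells of organs, stood at 2.16, 1.49, 1.97 and 1.05 CPM at day 5, against 11.3, 12.8, 11.1 and 12.8 CPM at day 1 (log2 fold change -2.84, SE 0.24, edgeR adjusted p = 3.4e-09). AHP6 (AT1G80100, chromosome 1, 30133718 to 30134937), an inhibitor of cytokinin signalling active in organ founder cells, had 5.82, 2.41, 3.36 and 3.05 CPM at day 5, against 24.4, 28.6, 24.9 and 23.6 CPM at day 1 (log2 fold change -2.79, SE 0.18, edgeR adjusted p = 8.19e-11). The rule required every day 5 value to lie below every day 1 value, and for both genes day 5 replicate 1 was the highest of its day. The others were LSH1 (-2.50), LBD19 (-2.47), the MEI2-type RNA-binding protein gene TEL1 (-2.45), the desaturase gene FTM1 (-2.20), SVP (-1.91), the F-box gene SAP (-1.89), the ferric reductase gene FRO6 (-1.88) and the gibberellin oxidase gene GA2ox4 (-1.85). With 1 library left out, the highest edgeR adjusted p of any of them was 0.00023, and 7 of the 10 had lower means at each daily step.

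**Figure D1:**
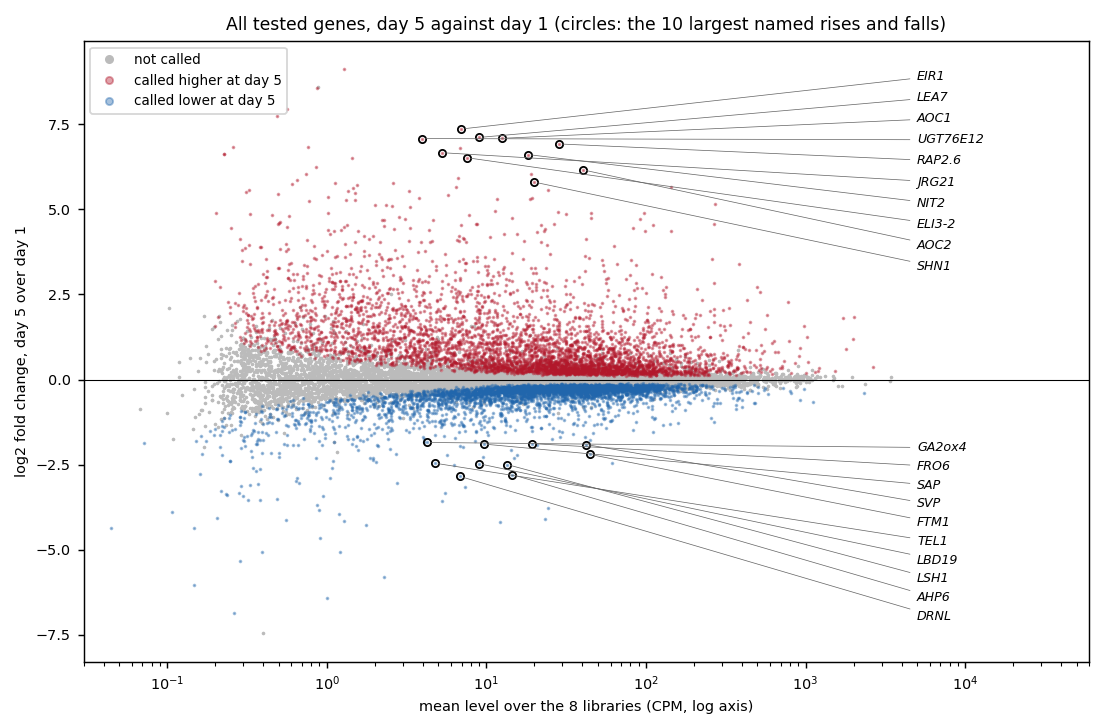
Log2 fold change of day 5 over day 1 (vertical axis) against the mean level over the 8 libraries in CPM (horizontal axis, log scale) for 19747 tested genes. Red points are the 4325 genes called higher at day 5, blue points the 3707 called lower and grey points the genes not called. Circles mark the 10 largest named rises, at 5.80 to 7.36, and the 10 largest named falls, at -2.84 to -1.85.

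Of the promoters of these 20 genes, 7 held at least 1 of the 6 motifs searched within 250 bases upstream of the annotated start. No matching share of all tested genes is given for this window, so counts over the 20 genes cannot be set against a background. The G-box, CACGTG, the core site of many bHLH and bZIP factors, was held by 4 of the 20, the rises LEA7 and RAP2.6 and the falls FRO6 and GA2ox4. The sequences of LEA7 and RAP2.6 are shown as the examples with the larger changes. Each is the 250 bases before the start on the plus strand of TAIR10.1, from RefSeq, with motif matches in capitals. The capitals are CACGTG and, in LEA7, also CCGTT, the reverse complement of AACGG, the core of the mitotic MSA element.
LEA7, chr1:19619474-19619723: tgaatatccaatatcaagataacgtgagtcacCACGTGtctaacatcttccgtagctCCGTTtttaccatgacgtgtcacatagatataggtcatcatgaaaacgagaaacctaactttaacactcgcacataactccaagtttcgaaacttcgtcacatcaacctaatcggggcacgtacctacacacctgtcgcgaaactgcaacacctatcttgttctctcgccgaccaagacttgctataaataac
RAP2.6, chr1:16263555-16263804: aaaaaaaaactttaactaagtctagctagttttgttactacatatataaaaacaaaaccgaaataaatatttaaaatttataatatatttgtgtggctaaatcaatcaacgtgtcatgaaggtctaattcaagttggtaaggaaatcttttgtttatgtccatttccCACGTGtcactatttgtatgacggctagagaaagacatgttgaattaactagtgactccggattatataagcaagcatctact
The window searched over all genes was 250 bases before to 50 after the start, on both strands, and matches to different motifs were counted separately even where they overlapped. The G-box was found in 201 of 1708 promoters of genes at least 2-fold higher (11.8%), in 32 of 405 of genes at least 2-fold lower (7.9%) and in 1739 of 19663 of all tested genes (8.84%). Of the 23 jasmonate genes described further on, 5 held it (21.7%). The site II element GGCCCA was found in 7.2%, 9.88% and 19.3% of the same sets, the telo box AAACCCTAA in 1.23%, 2.72% and 3.35%, and the E2F site TTCCCGCC in 0.117%, 0.494% and 0.773%. AACGG was found in 20%, 22.5% and 26.6% and the CArG box of MADS factors in 2.4%, 1.48% and 3.21%. These shares describe letters in a window and were not tested.

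Most genes that specify floral organs rose, while LFY, UFO and CAL, which give the floral meristem its identity, fell. Of 24 tested organ identity and patterning genes 15 rose and 7 fell, against 21.9% and 18.8% of all tested genes, and the median change was 0.71. AP3 (AT3G54340, chromosome 3, 20119140 to 20121314), a B class gene for petals and stamens, stood at 179, 178, 188 and 173 CPM at day 5, against 62.8, 65.2, 71.5 and 74 CPM at day 1 (log2 fold change 1.39, SE 0.12, edgeR adjusted p = 3.4e-09). SEP3 (AT1G24260, chromosome 1, 8593536 to 8596123), an E class gene required with the others in all whorls, had 114, 112, 118 and 114 CPM at day 5, against 22.5, 23.8, 29.9 and 31.4 CPM at day 1 (log2 fold change 2.09, SE 0.12, edgeR adjusted p = 1.43e-11). AG (AT4G18960, chromosome 4, 10382856 to 10388539), the C class gene of stamens and carpels, stood at 32.2, 30.8, 36 and 34.6 CPM at day 5, against 9.48, 9.56, 12.4 and 15.3 CPM at day 1 (log2 fold change 1.51, SE 0.16, edgeR adjusted p = 7.77e-08). For these 3 genes the days did not overlap, and the 4 day 5 libraries lay close together.

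SEP2 (AT3G02310) rose by 1.70 and SEP1 (AT5G15800) by 1.09, while PI (AT5G20240), the partner of AP3, rose by 0.69 and AP2 (AT4G36920), the A class gene of the perianth, by 1.06. Genes of organ growth and whorl borders rose as well, JAG (AT1G68480) by 1.38, the petal gene RBE (AT5G06070) by 1.99 and SUP (AT3G23130), which borders the stamen whorl, by 1.57. LMI1, a target of LFY and a leaf shape gene, rose by 2.41. AP1 (AT1G69120) had 257, 325, 324 and 278 CPM at day 5, against 241, 246, 262 and 256 CPM at day 1 (log2 fold change 0.24, SE 0.08, edgeR adjusted p = 0.0158). Its days overlapped, since day 5 replicate 1 lay within the day 1 range, and the call was lost when 1 library was left out (highest edgeR adjusted p = 0.0672).

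LFY (AT5G61850), the master regulator of floral meristem identity, fell, with 58.3, 52.6, 75.5 and 61.6 CPM at day 5, against 94, 106, 106 and 87.1 CPM at day 1 (log2 fold change -0.66, SE 0.09, edgeR adjusted p = 7.9e-06). Its cofactor UFO (AT1G30950) fell by 0.75, CAL (AT1G26310), mutated in the line, by 1.42, and PAN, a bZIP gene that limits organ number, by 1.21. BOP1 and BOP2, co-regulators active at organ bases, fell by 0.78 and 0.35. SEU, a co-repressor of AG, was called lower at -0.15, but the call was lost without 1 library (highest edgeR adjusted p = 0.162).

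**Figure D2:**
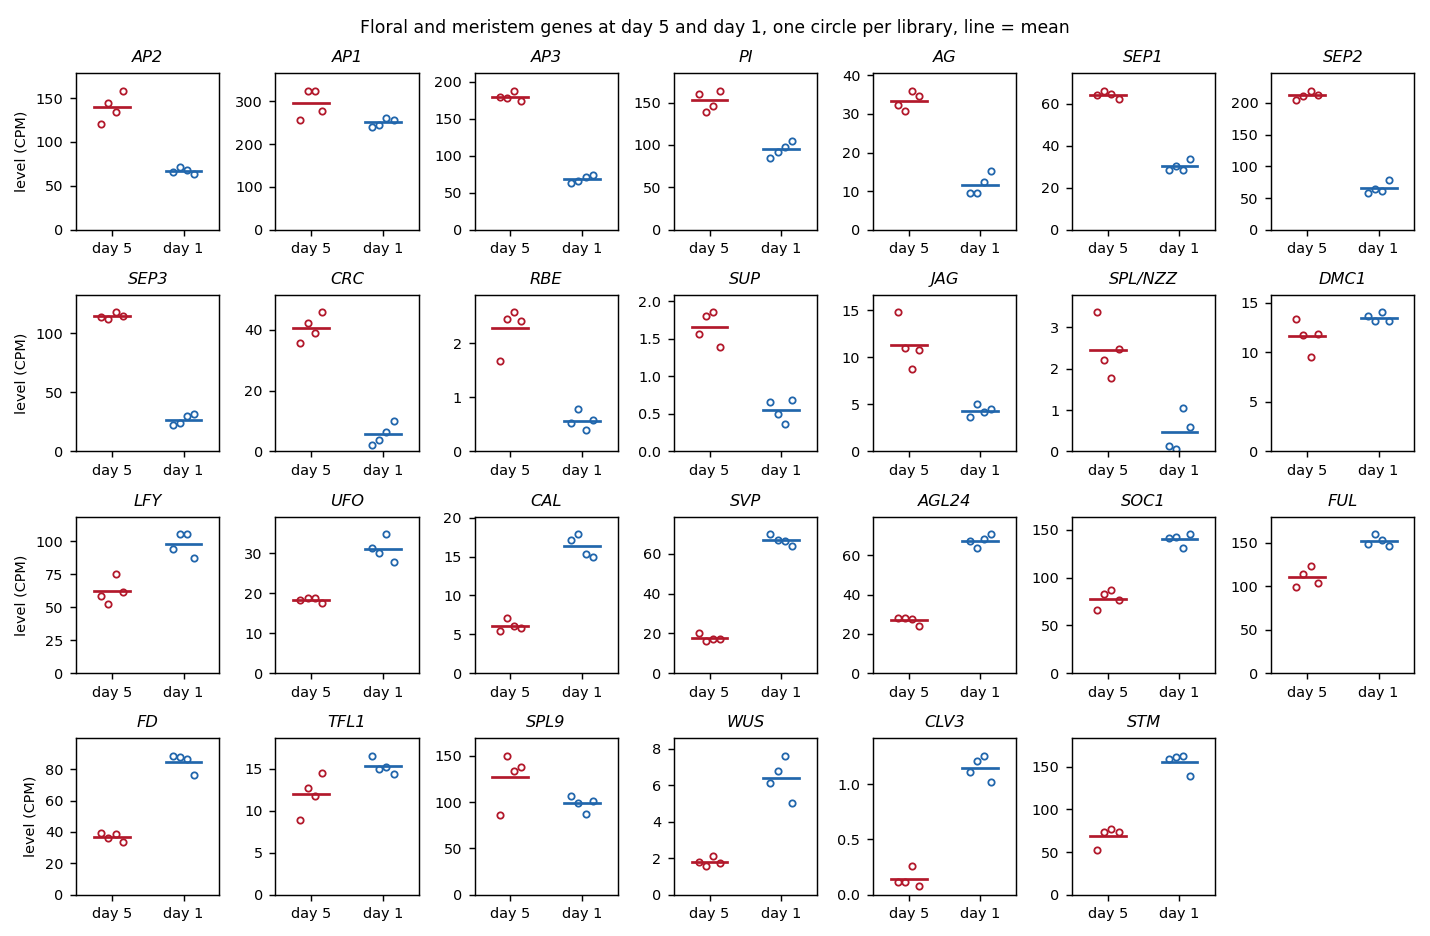
Level in CPM (vertical axis, from 0) of 27 floral and meristem genes in the 4 libraries of day 5 (red, left) and the 4 of day 1 (blue, right), with 1 circle per library and a line at the mean. Of the 27 genes 14 were called higher, 12 lower and 1 (DMC1) was not called, and the days did not overlap in 23.

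Flowering-time regulators moved apart. SVP, AGL24 and their MADS relatives SOC1, FUL and AGL42 fell, while SPL4 and SPL5 rose. The transition list had 6 rises and 7 falls among 17 tested genes (median -0.09), against 21.9% and 18.8% of all tested genes. SVP (AT2G22540, chromosome 2, 9579647 to 9583901), a MADS repressor of early organ genes, had 20.4, 16.2, 17.1 and 17.3 CPM at day 5, against 70.0, 67, 66.2 and 63.8 CPM at day 1 (log2 fold change -1.91, SE 0.08, edgeR adjusted p = 2.49e-13). AGL24 (AT4G24540), its relative, had 27.9, 28.2, 27.4 and 24 CPM at day 5, against 67, 63.6, 68.2 and 70.8 CPM at day 1 (log2 fold change -1.33, SE 0.07, edgeR adjusted p = 1.84e-12). Both genes were lower at day 5 in every library. SOC1 fell by 0.85, FUL by 0.47, AGL42 by 1.14 and FD, the bZIP partner of the florigen FT, by 1.20. TFL1, which keeps the inflorescence indeterminate, was called lower at -0.36, but its days overlapped and without day 5 replicate 1 its edgeR adjusted p was 0.0981.

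SPL5, a factor of the age pathway, stood at 94.6, 152, 152 and 169.9 CPM at day 5, against 46.3, 48.4, 54.4 and 51.4 CPM at day 1 (log2 fold change 1.5, SE 0.16, edgeR adjusted p = 1.75e-07). SPL4 rose by 0.63, and by 0.82 without day 5 replicate 1, which lay below every day 1 value (127, 262, 236 and 270.3 CPM at day 5, against 136, 134, 168 and 139 CPM at day 1). TEM1 and SMZ, repressors of flowering, rose by 1.01 and 1.36. SPL9 had 86, 150.2, 133 and 138 CPM at day 5, against 107, 99, 87.1 and 102 CPM at day 1 (log2 fold change 0.36, SE 0.13, edgeR adjusted p = 0.0275). Day 5 replicate 1 lay below every day 1 value of SPL9, the other 3 day 5 libraries lay above all of them, and the call was lost without other libraries (highest edgeR adjusted p = 0.116). FT, the florigen gene, was low, at 0.261, 0.726, 0.227 and 0.677 CPM at day 5, against 0.104, 0.214, 0.18 and 0.145 CPM at day 1, and its call at 1.53 was lost without 1 library (highest edgeR adjusted p = 0.109).

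Meristem genes were lower at day 5. Of 13 tested genes 11 fell and 1 rose, with a median of -0.79. STM (AT1G62360, chromosome 1, 23058582 to 23062063), which keeps meristem cells undifferentiated, stood at 52.9, 73.8, 77.3 and 73.2 CPM at day 5, against 158, 161, 163 and 139 CPM at day 1 (log2 fold change -1.17, SE 0.09, edgeR adjusted p = 5.39e-10). WUS (AT2G17950), the organiser of the stem cell niche, had 1.79, 1.57, 2.12 and 1.73 CPM at day 5, against 6.11, 6.78, 7.62 and 5.01 CPM at day 1 (log2 fold change -1.82, SE 0.22, edgeR adjusted p = 7.12e-07). CLV3 (AT2G27250), its peptide antagonist made by the stem cells, had 0.112, 0.115, 0.265 and 0.0752 CPM at day 5, against 1.11, 1.21, 1.26 and 1.02 CPM at day 1 (log2 fold change -2.98, SE 0.29, edgeR adjusted p = 3e-08). No day 5 library reached the lowest day 1 library in any of the 3 genes. BLH8 and BLH9, homeodomain partners of STM, fell by 1.59 and 0.80, and KNAT6 fell by 0.79, whereas ATH1, another homeodomain gene of the same class, rose by 0.58. In the organ boundary list 5 of 7 genes fell and none rose (median -0.28), led by LSH3 (-0.89) and CUC2 (-0.65). In the fit on batch 1 runs alone 3 of these 5 falls were called, and the call of CUC1 (-0.28) was lost without day 5 replicate 1 (edgeR adjusted p = 0.0528).

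The early markers of organ initiation fell with the meristem genes. Among genes of auxin and organ initiation 12 of 22 fell and 4 rose (median -0.24), against 18.8% and 21.9% of all tested genes. PUCHI (AT5G18560), an AP2-type factor of flower primordia, had 0.149, 0.115, 0.265 and 0 CPM at day 5, against 3.12, 2.39, 2.19 and 2 CPM at day 1 (log2 fold change -4.15, SE 0.40, edgeR adjusted p = 2.75e-08). DRN fell by 2.41 beside its relative DRNL, and the PLETHORA-type genes AIL6 and AIL7 fell by 1.21 and 1.22. The auxin influx carrier gene AUX1 fell by 0.77 and the auxin synthesis gene YUC4 by 0.85. AIL5 rose by 1.12, the auxin synthesis gene TAA1 by 0.69 and the efflux carrier gene PIN3 by 0.76. ANT, another growth gene of the AIL family, was not called (0.02, edgeR adjusted p = 0.882).

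Genes of organ polarity went both ways. KAN3, which acts on the lower side of organs, had 9.4, 8.14, 8.99 and 9.78 CPM at day 5, against 1.56, 1.64, 1.98 and 2.9 CPM at day 1 (log2 fold change 2.17, SE 0.16, edgeR adjusted p = 8.84e-10). YAB3 rose by 1.56, FIL (AT2G45190) by 1.16, YAB2 by 1.32 and AS2, which acts on the upper side, by 2.16. ETT, an auxin response factor of the lower side, stood at 158, 155, 170.2 and 162 CPM at day 5, against 359, 363, 369.6 and 315 CPM at day 1 (log2 fold change -1.13, SE 0.07, edgeR adjusted p = 2.12e-11). YAB5 fell by 1.19, so the YABBY genes did not share a direction. Over the list 6 of 16 genes rose and 4 fell (median -0.05), against 21.9% and 18.8% of all tested genes. Without day 5 replicate 3 or without day 1 replicate 4, 2 falls were left.

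Genes of carpels and ovules went both ways. Of 17 tested genes of the carpel and ovule list 9 rose and 6 fell (median 0.45), against 21.9% and 18.8% of all tested genes. CRC (AT1G69180, chromosome 1, 26007350 to 26009141), a YABBY gene of carpels and nectaries, stood at 35.7, 42.2, 38.8 and 45.8 CPM at day 5, against 2.05, 3.78, 6.47 and 10.1 CPM at day 1 (log2 fold change 2.86, SE 0.39, edgeR adjusted p = 4.64e-06). The 4 NGA genes, which act in style formation, rose, with NGA1 at 21, 17.4, 19.3 and 18.6 CPM at day 5, against 2.78, 2.6, 3.52 and 4.06 CPM at day 1 (log2 fold change 2.56, SE 0.16, edgeR adjusted p = 4.79e-11), NGA2 at a log2 fold change of 2.38, NGA3 at 2.27 and NGA4 at 1.55. The fruit valve margin genes SHP1 and SHP2 rose by 1.03 and 2.38. INO (AT1G23420), a YABBY gene of the outer ovule integument, had 0.186, 0.115, 0 and 0.188 CPM at day 5, against 1.8, 1.57, 1.55 and 1.56 CPM at day 1 (log2 fold change -3.68, SE 0.35, edgeR adjusted p = 2.39e-08). The style gene STY1 fell by 1.29 and its relative LRP1 by 0.28, so genes that act in the style did not share a direction. BEL1 of the ovule integuments fell by 0.69 and SPT of the carpel margin by 0.75.

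Several genes that start the anther programme rose, but genes of the tapetum and of pollen were not called. TGA9, a bZIP gene of anther lobes, stood at 13.2, 7.53, 9.03 and 10.3 CPM at day 5, against 0.451, 0.606, 2.55 and 2.07 CPM at day 1 (log2 fold change 2.82, SE 0.39, edgeR adjusted p = 4.57e-06). SPL/NZZ (AT4G27330), required for spore mother cells, had 3.36, 2.22, 1.78 and 2.48 CPM at day 5, against 0.139, 0.0713, 1.04 and 0.581 CPM at day 1 (log2 fold change 2.42, SE 0.61, edgeR adjusted p = 0.00308). Without day 1 replicate 3, the highest of its day, the change of SPL/NZZ was 3.21. EMS1 and BAM2, receptor kinases of anther wall formation, rose by 0.46 and 0.64, while BAM1 fell by 0.70 and the glutaredoxin gene ROXY1 by 1.41. Over the early anther list 5 of 13 genes rose and 2 fell (median 0.03), against 21.9% and 18.8% of all tested genes.

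None of 13 tested genes of the tapetum and pollen wall list was called in the edgeR fit, none had an unadjusted p under 0.05, and DESeq2 called none. Their summed levels ranged over 30.3 to 109 CPM at day 5 and 32.8 to 96 CPM at day 1, with 1 high library on each side. AMS, a tapetum regulator, had 0.336, 1.68, 1.21 and 7.93 CPM at day 5, against 0, 0.25, 6.29 and 1.78 CPM at day 1. Day 5 replicate 4 and day 1 replicate 3 were the high libraries, and day 1 replicate 3 was the highest of its day in all 13 genes. Of 8 mature pollen genes 2 were tested, neither was called by edgeR or DESeq2, and neither had an unadjusted p under 0.05. Of 11 meiosis genes 3 fell (against 18.8% of all tested genes) and none rose. ASY1, a protein of the meiotic chromosome axis, fell by 1.22, while DMC1 (AT3G22880), the meiotic recombinase, had 13.4, 11.8, 9.56 and 11.8 CPM at day 5, against 13.7, 13.1, 14.1 and 13.1 CPM at day 1 (log2 fold change -0.21, edgeR adjusted p = 0.117) and was called lower once day 5 replicate 1 was left out (-0.29, edgeR adjusted p = 0.0403).

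Cell division genes changed little in size. Of 18 mitosis genes 9 fell and 1 rose (against 18.8% and 21.9% of all tested genes), with changes between -0.48 and 0.59 (median -0.18). CYCB1;1 fell by 0.43 and CYCB1;4 by 0.48, and CYCB2;1 rose by 0.59. Day 5 replicate 1 was the highest of its day in 14 of the 18 genes, and without it 12 fell. Leaving out any of the other 3 day 5 libraries, day 1 replicate 1 or day 1 replicate 2 left 5 falls. In the DNA replication list 16 of 18 genes were not called, and TSO2, a subunit of the ribonucleotide reductase, rose by 0.57 while the DNA methyltransferase gene MET1 fell by 0.31.

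The CIN-type TCP genes, which limit division at organ margins, rose in 7 of 8 cases, with a median of 1.22. TCP10 had 65.2, 108, 101 and 109 CPM at day 5, against 17.9, 16.2, 18.2 and 17.6 CPM at day 1 (log2 fold change 2.46, SE 0.17, edgeR adjusted p = 1.37e-10). TCP13 stood at 17.2, 10.9, 10.9 and 11.6 CPM at day 5, against 2.81, 2.28, 2.37 and 1.74 CPM at day 1 (log2 fold change 2.45, SE 0.16, edgeR adjusted p = 7.79e-11). TCP5 rose by 1.56, TCP4 by 1.25, TCP3 by 1.18, TCP2 by 0.99 and TCP24 by 0.34, and TCP17 was not called. Among the growth-regulating factors GRF8 rose by 2.30 and the co-activator gene GIF1 fell by 0.82, within 3 rises and 2 falls of 10 (against 21.9% and 18.8% of all tested genes). Inhibitors of cyclin-dependent kinases went both ways, with KRP5 (-1.08) and KRP2 (-0.90) lower and SMR1 (1.56) and KRP7 (1.01) higher. Of the expansin and primary wall genes 7 of 12 rose and 1 fell, led by EXPA1 (2.07), EXPA8 (1.73) and EXPA10 (1.22), and the fall of EXPA9 (-0.64) was lost without day 5 replicate 3.

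**Figure D3:**
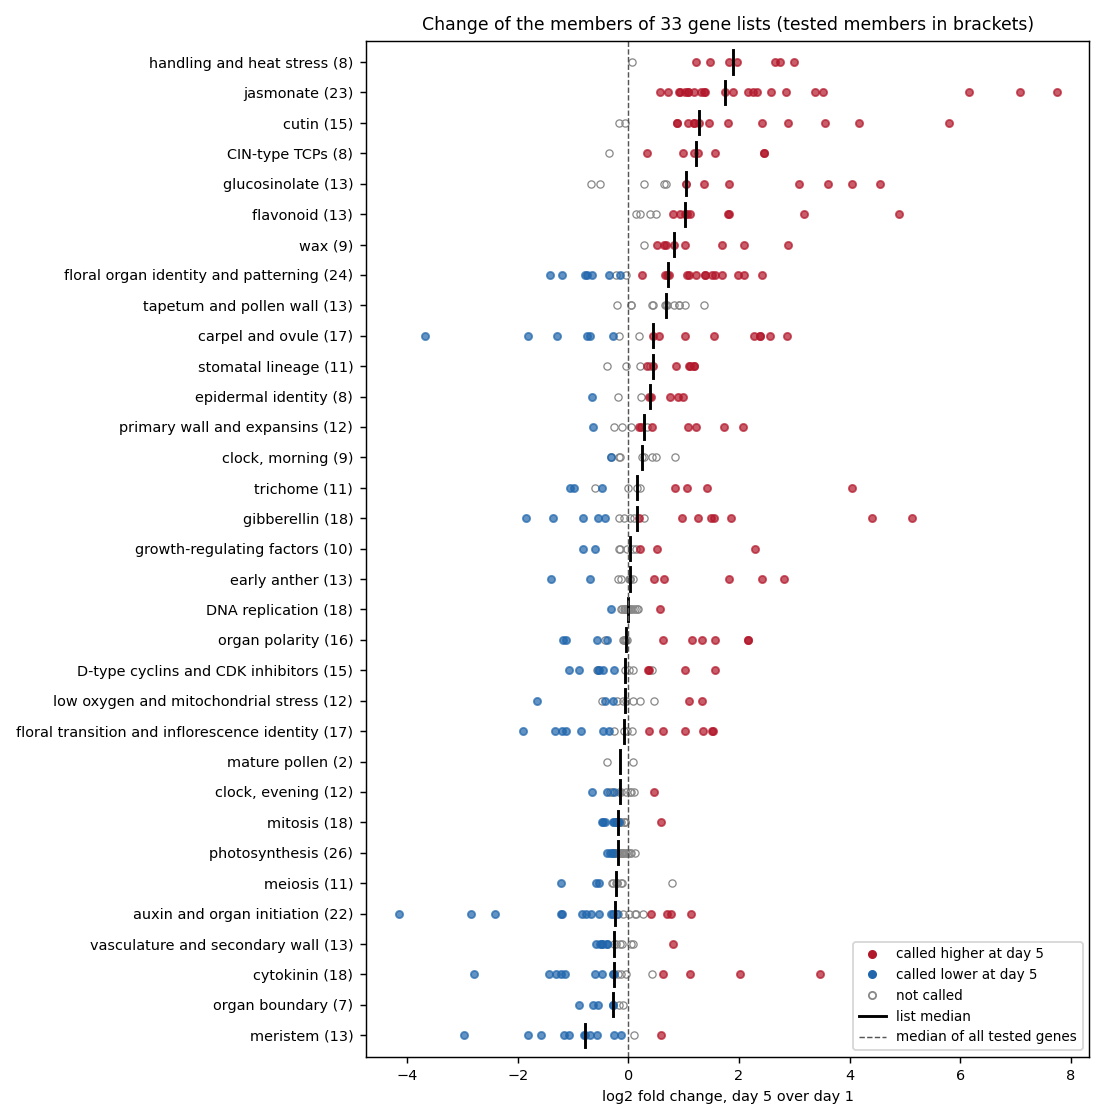
Log2 fold change of day 5 over day 1 (horizontal axis) of each tested member of 33 gene lists (rows, with the number of tested members in brackets), ordered by median. Red points were called higher at day 5, blue points lower and open points were not called, the black bars are list medians and the dashed line is the median of all tested genes (-0.01). The jasmonate row has 23 red points of 23, and the meristem row has the lowest median, -0.79.

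The gibberellin-inactivating enzyme genes GA2ox8 and GA2ox6 rose. GA2ox8 (AT4G21200), an enzyme that removes gibberellin precursors, had 4.74, 3.33, 4.42 and 3.08 CPM at day 5, against 0.104, 0.0357, 0.216 and 0.0726 CPM at day 1 (log2 fold change 5.13, SE 0.38, edgeR adjusted p = 6.6e-10). GA2ox6 rose by 4.40 (at most 5.12 with 1 library left out), whereas GA2ox4 fell by 1.85, so members of this family differed in direction. GA2ox1 was called lower at -0.82, but the call was lost without 1 library (highest edgeR adjusted p = 0.0627). Whether related members share reads was not tested. On the synthesis side GA20ox1 fell by 1.37 and GA20ox2 rose by 1.54. The receptor gene GID1B rose by 1.5, the DELLA gene GAI fell by 0.42 and RGL2, another DELLA gene, rose by 1.26. In all 8 of 18 gibberellin genes rose and 5 fell (median 0.15), against 21.9% and 18.8% of all tested genes.

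Of 18 cytokinin genes 9 fell and 4 rose (median -0.26), against 18.8% and 21.9% of all tested genes. LOG7 and LOG4, enzymes that activate cytokinin, fell by 1.23 and 1.44, and CKX6, a cytokinin oxidase gene, by 1.31. CKX1 (AT2G41510), another oxidase gene, stood at 8.69, 8.64, 7.78 and 8.2 CPM at day 5, against 0.694, 0.499, 1.22 and 0.581 CPM at day 1 (log2 fold change 3.47, SE 0.25, edgeR adjusted p = 4.1e-10), and LOG3 rose by 2.02. ARR15 and ARR7, response regulators that cytokinin induces, were high in day 5 replicate 1. ARR15 had 10, 3.25, 2.19 and 2.48 CPM at day 5, against 13.7, 10.2, 7.66 and 8.05 CPM at day 1, a log2 fold change of -1.14, and -1.91 without that library (edgeR adjusted p = 1.55e-05). The 9 falls became 4 without day 5 replicate 3 or day 1 replicate 1 and 5 without day 1 replicate 2.

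Every gene of the jasmonate list rose, with and without TMM scaling. The list holds 23 genes of synthesis, signalling and response, all of them tested, and 19 rose by at least 2-fold, with a median of 1.74. Jasmonate is the oxylipin hormone that the flower needs for stamen maturation and that wounding induces. In synthesis, the lipase gene DAD1 (AT2G44810), which acts in the anther, had 0.597, 1.15, 1.21 and 0.978 CPM at day 5, against 0, 0, 0 and 0 CPM at day 1. No read of it was counted at day 1, and against a floor of 3 counts over the 4 day 1 libraries its mean was at least 36.7-fold higher at day 5. The list median with this gene at its bound was also 1.74.

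The lipoxygenase gene LOX3 (AT1G17420) stood at 143, 84.8, 84.7 and 77.3 CPM at day 5, against 10.7, 10.1, 7.62 and 9.43 CPM at day 1 (log2 fold change 3.37, SE 0.28, edgeR adjusted p = 2.85e-09). AOC1 (AT3G25760, chromosome 3, 9403779 to 9405338), an allene oxide cyclase gene, had 40.5, 22.1, 19.9 and 16.6 CPM at day 5, against 0.174, 0.107, 0.288 and 0.145 CPM at day 1 (log2 fold change 7.08, SE 0.56, edgeR adjusted p = 1.44e-09). AOC2 (AT3G25770), its neighbour and near copy, had 101, 72.5, 75 and 68.3 CPM at day 5, against 0.764, 0.392, 2.16 and 1.12 CPM at day 1 (log2 fold change 6.16, SE 0.59, edgeR adjusted p = 2.66e-08). In these 3 genes the days did not overlap and day 5 replicate 1 was the highest library. AOS rose by 1.38, OPR3, the reductase whose loss makes stamens sterile, by 1.08, LOX4 by 2.32 and AOC3 by 3.51. JAR1, which couples jasmonate to isoleucine to give the active hormone, rose by 0.71 with little spread, at 51, 54.5, 51 and 53.3 CPM at day 5, against 31.9, 32.3, 32.8 and 31.4 CPM at day 1.

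The JAZ repressors, which jasmonate induces and which block MYC factors, rose in all 9 genes of the list. JAZ1 had 235, 116, 144 and 111 CPM at day 5, against 23.7, 21.3, 21.7 and 17.3 CPM at day 1 (log2 fold change 2.85, SE 0.32, edgeR adjusted p = 2.25e-07). JAZ10 stood at 169.8, 131, 122 and 136 CPM at day 5, against 31.9, 29.2, 33.5 and 29.7 CPM at day 1 (log2 fold change 2.17, SE 0.24, edgeR adjusted p = 1.89e-07), and MYC2 rose by 1.02. For JAZ8 the levels were 6, 1.19, 1.85 and 1.01 CPM at day 5, against 0.59, 0.535, 1.15 and 0.435 CPM at day 1, and its days overlapped. Without day 5 replicate 1 the calls of JAZ8 (log2 fold change 0.99, edgeR adjusted p = 0.103) and JAZ7 (0.97, edgeR adjusted p = 0.0569) were lost, so that 21 of 23 genes rose.

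LOX2, VSP1 and VSP2 took the opposite order among the day 5 libraries. LOX2 (AT3G45140), the lipoxygenase of leaves, had 424, 1103, 829 and 1176 CPM at day 5, against 179, 143, 128 and 142 CPM at day 1 (log2 fold change 2.58, SE 0.35, edgeR adjusted p = 4.4e-06). VSP1, a vegetative storage protein gene, stood at 1380, 3516, 3100 and 3032 CPM at day 5, against 1173, 1159, 1114 and 1404 CPM at day 1 (log2 fold change 1.19, SE 0.28, edgeR adjusted p = 0.00195), and VSP2, its near copy, at 379.8, 1092, 875 and 985 CPM at day 5, against 359, 376, 359 and 482 CPM at day 1 (log2 fold change 1.08, SE 0.34, edgeR adjusted p = 0.014). Day 5 replicate 1 was the lowest library of its day in these 3 genes, and for VSP1 and VSP2 it lay within the range of day 1. In the whole list it was highest in 17 genes and lowest in 6. The summed level of the list was 4934 to 7505 CPM at day 5 and 2283 to 2629 CPM at day 1. Day 5 replicate 1 had the lowest sum of its day, 4934 CPM. VSP1, VSP2 and LOX2 were a large part of these sums, so the order of the sums is not that of most genes of the list. The handling and heat stress list holds genes that touch and wounding induce. Its summed level was highest in day 5 replicate 1, as were 17 of the 23 jasmonate genes, and TCH3 made up most of that sum. The part of handling in the jasmonate result was not tested.

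Genes of that handling list rose in 7 of 8 cases (median 1.88). Their summed level was 289.9 to 1007 CPM at day 5 and 147 to 224 CPM at day 1, with day 5 replicate 1 at the top, though it was the highest of its day in 4 of the 8 genes and the lowest in 2. TCH4, a wall enzyme gene induced by touch, had 63.2, 58, 187 and 101 CPM at day 5, against 11.9, 12.9, 17.1 and 9.51 CPM at day 1 (log2 fold change 2.99, SE 0.46, edgeR adjusted p = 1.89e-05). WRKY40, a defence factor, stood at 87.8, 25.6, 43.5 and 23.4 CPM at day 5, against 6.28, 6.56, 8.63 and 5.37 CPM at day 1 (log2 fold change 2.75, SE 0.34, edgeR adjusted p = 1.34e-06). TCH3, a calmodulin-like gene, had 688, 116, 197 and 116 CPM at day 5, against 76.8, 100.3, 139.6 and 82.7 CPM at day 1, and its change of 1.48 became 0.52 without day 5 replicate 1 (edgeR adjusted p = 0.212). The other 6 rises held without that library, among them ZAT10 (1.96), ZAT12 (1.81) and HSFA2 (2.65), while the heat shock gene HSP101 was not called.

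**Figure D4:**
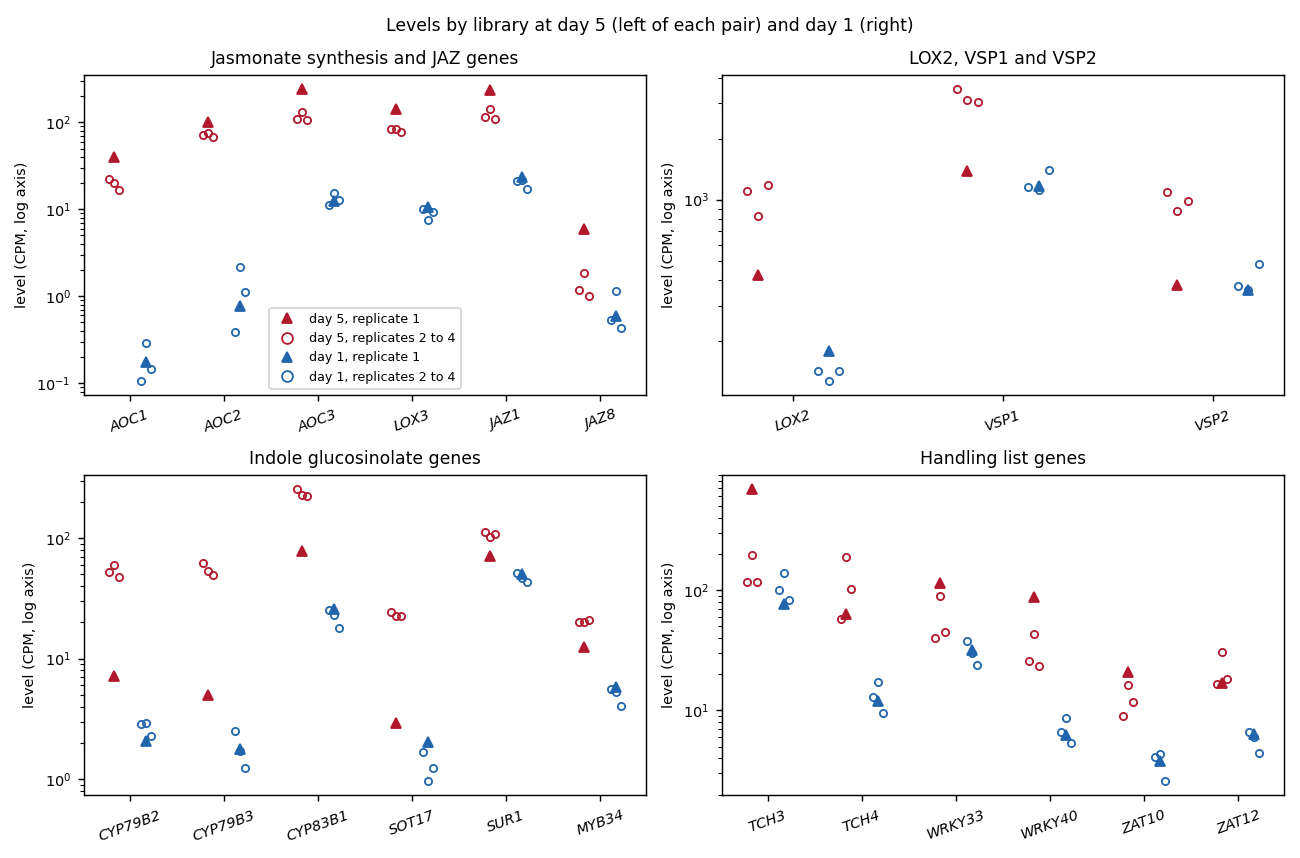
Level in CPM (vertical axes, log scale) of jasmonate, glucosinolate and handling list genes, with day 5 in red at the left of each pair and day 1 in blue at the right. The panel titled indole glucosinolate genes also holds SUR1, which both branches share, and the sulfotransferase gene SOT17. Triangles are replicate 1 and circles replicates 2 to 4 of each day. The day 5 triangle is the highest red point for AOC1, AOC2, AOC3, LOX3, JAZ1 and JAZ8 and the lowest for LOX2, VSP1, VSP2 and the 6 glucosinolate genes.

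In the cutin list 13 of 15 genes rose and none fell (median 1.28), and in the wax list 8 of 9 rose (median 0.82). SHN1 (AT1G15360, chromosome 1, 5283268 to 5284736), an ERF-type activator of cutin genes, had 25.1, 51.1, 27.7 and 52.2 CPM at day 5, against 0.521, 0.392, 0.683 and 1.2 CPM at day 1 (log2 fold change 5.80, SE 0.37, edgeR adjusted p = 6.18e-11). CYP86A4 (AT1G01600), a fatty acid hydroxylase gene of floral cutin, stood at 24.8, 36.8, 22.2 and 41.5 CPM at day 5, against 2.57, 2.64, 2.3 and 3.16 CPM at day 1 (log2 fold change 3.55, SE 0.29, edgeR adjusted p = 2.54e-09). CYP77A6 (AT3G10570), which acts after it, had 37.4, 85, 46.6 and 82.6 CPM at day 5, against 8.47, 7.88, 7.48 and 10.1 CPM at day 1 (log2 fold change 2.89, SE 0.26, edgeR adjusted p = 1.29e-08). The days did not overlap, and in all 3 genes day 5 replicates 2 and 4 lay above replicates 1 and 3. The acyltransferase gene GPAT6 rose by 2.42, the acyl-CoA synthetase gene LACS2 by 1.45 and the MYB regulator MYB16 of conical petal cells by 1.79. SHN3 was not called, and SHN2 was called lower once day 5 replicate 1 was left out (-1.24, edgeR adjusted p = 0.0485).

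Among wax genes, FOP1 (AT5G53390), a wax ester synthase gene named for folded petals, rose by 2.88, the alkane gene CER1 by 2.09 and the elongase gene KCS1 by 1.68. The epidermal identity genes rose less, with 5 rises and 1 fall of 8 (median 0.39). ATML1, the homeodomain regulator of the epidermis, rose by 0.76, its target PDF1 by 0.89 and FDH by 0.98, and ANL2 fell by 0.66. Stomatal lineage genes rose in 7 of 11 cases (against 21.9% of all tested genes), among them SPCH (1.18), which starts the lineage, and the receptor gene TMM (1.18). MUTE and FAMA, which act later, were not called. In the trichome list 4 genes rose and 3 fell of 11, against 21.9% and 18.8% of all tested genes. The inhibitor genes of the R3 MYB family did not share a direction, with ETC3 (4.05) and TRY (1.43) higher and CPC (-1.06) lower.

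In the glucosinolate list 7 of 13 tested genes rose and none fell (median 1.04). CYP79B3 (AT2G22330), which converts tryptophan at the first step, had 4.96, 61.5, 53 and 49.5 CPM at day 5, against 1.77, 2.5, 1.73 and 1.23 CPM at day 1 (log2 fold change 4.54, SE 0.75, edgeR adjusted p = 4.73e-05). CYP79B2, which does the same, rose by 4.04, CYP83B1 of the indole branch by 3.09 and the regulator MYB34 of that branch by 1.82. SUR1, which both branches share, rose by 1.04, and the sulfotransferase genes SOT17 and SOT18 rose by 3.60 and 1.37. Day 5 replicate 1 was the lowest day 5 library in 11 of the 13 genes, close to day 1 for CYP79B3, whose change was 4.91 without it, and the summed level of the list was 203 to 554 CPM at day 5 and 93.3 to 110.2 CPM at day 1. In the flavonoid list 9 of 13 genes rose (median 1.03), and day 5 replicate 1 was the lowest of its day in 12 of them. TT7, the flavonoid 3'-hydroxylase gene, had 37.3, 87.9, 74.4 and 97.6 CPM at day 5, against 8.51, 7.92, 7.52 and 9 CPM at day 1 (log2 fold change 3.17, SE 0.31, edgeR adjusted p = 4.12e-08), while CHS, the entry enzyme, was not called (0.38, edgeR adjusted p = 0.277).

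Photosynthesis genes were close to level. None of 26 rose and 4 fell (against 21.9% and 18.8% of all tested genes), between RBCS1A (-0.38) and GAPB (-0.27), with a median of -0.19. That count was 13 with library totals and 1 with size factors of the DESeq2 kind, and leaving out day 5 replicate 3 or 4 or day 1 replicate 1, 2 or 3 left 1 fall. Of 13 vascular and secondary wall genes 6 fell (against 18.8% of all tested genes), the cellulose synthase genes CESA4 (-0.59) and CESA7 (-0.51) among them. Day 5 replicate 1 was the lowest of its day in 9 of the 13 genes, and without it 4 fell. Without replicate 1 of all days 2 fell, and without replicate 3 of all days 3 fell. The 1 rise, VND7 (0.81), was not called without each library. The labels do not give the hour of sampling, so its part in differences of clock and light-responsive genes was not tested. Clock genes mostly were not called. The morning list had 1 fall of 9, and the evening list 1 rise and 3 falls of 12. Of all tested genes 21.9% rose and 18.8% fell. None of these clock gene calls held without each library in turn. In the low oxygen list 3 of 12 genes fell (against 18.8% of all tested genes), led by SUS4 (-1.66), and 2 rose (against 21.9%), DTX1 (1.33) and PDC1 (1.10), which did not hold without each library. None of the 5 seed storage and 4 root hair genes was tested, and their summed levels were 0 to 0.15 CPM at day 5 and 0.0347 to 0.144 CPM at day 1 for seed storage and 0 to 0.153 CPM at day 5 and 0 to 0.109 CPM at day 1 for root hairs.

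In a small share of genes the log2 change before day 3 differed from that after it. To compare the stretch before day 3 with the stretch after it, the difference between the log2 change of day 5 over day 3 and that of day 3 over day 1 was tested in the same fit. It was called in 381 genes (1.93%). In 186 (0.942%) the log2 change after day 3 was higher than that before it, and in 195 (0.987%) it was lower. The sign of the difference does not give the direction of either change. LFY, with a difference of -0.75 (edgeR adjusted p = 0.0118), averaged 98.1, 101 and 62 CPM on days 1, 3 and 5, so it fell late. BEL1, with a difference of 1.26 (edgeR adjusted p = 0.0305), averaged 6.19, 3.145 and 3.84 CPM on the same days. Several organ identity and polarity genes made most of their rise early. AP3 averaged 68.3 ± 5.23, 133 ± 3.58, 172 ± 22.4, 172 ± 9.39 and 179 ± 6.09 CPM on days 1, 2, 3, 4 and 5 (n = 4 each), and the difference was -1.27 (SE 0.19, edgeR adjusted p = 0.000587). RBE averaged 0.57 ± 0.162, 2.39 ± 0.288, 3.23 ± 0.17, 3.27 ± 0.763 and 2.27 ± 0.404 CPM on days 1, 2, 3, 4 and 5, with a difference of -3.0 (SE 0.32, edgeR adjusted p = 1.11e-05). FIL had 119.9 ± 2.8, 199 ± 29.4, 293 ± 33.6, 289.6 ± 19.5 and 267 ± 20.3 CPM on days 1, 2, 3, 4 and 5, with a difference of -1.43 (SE 0.15, edgeR adjusted p = 1.11e-05). All 3 stood near or at their highest mean by day 3. The differences for SUP (-3.25) and JAG (-1.77) were negative and called too, while CRC (0.21, edgeR adjusted p = 0.96) was not called. SUP averaged 0.552, 2.96 and 1.65 CPM on days 1, 3 and 5, so its mean was lower at day 5 than on day 3.

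In the cutin list the log2 change was called higher after day 3 than before it in 7 of 15 genes and lower in none. In the wax list it was called higher in none of 9 genes and lower in 1. The genes that follow were picked for the size of the difference, 5 of each sign. They were taken among named genes with a mean of at least 5 CPM on the higher of days 5 and 1. CYP86A7 (AT1G63710) averaged 1.1 ± 0.269, 0.782 ± 0.479, 0.678 ± 0.233, 1.99 ± 1.3 and 19.9 ± 8.16 CPM on days 1, 2, 3, 4 and 5, and its difference was 5.56 (SE 0.84, edgeR adjusted p = 0.000576). CYP86A4 averaged 2.67 ± 0.357, 2.27 ± 0.346, 2.09 ± 0.789, 4.91 ± 2.1 and 31.3 ± 9.31 CPM on days 1, 2, 3, 4 and 5, with a difference of 4.25 (SE 0.55, edgeR adjusted p = 0.000112). Both were at their lowest mean on day 3. The acyltransferase gene GLC (5.54), the lipase-family gene RXF26 (4.67) and the wall protein gene PRP4 (3.78) also gained more after day 3, as did JAR1 with a smaller difference (0.70, edgeR adjusted p = 0.00083). On the early side were EIR1 (-3.11), the cytochrome P450 gene CYP709B2 (-2.89), the MADS gene AGL15 (-2.37) and FOP1 (-2.28). The mean of CYP709B2 was lower at day 5 than on day 3, with 4.28, 15.3 and 7.42 CPM on days 1, 3 and 5. So was that of AGL15, with 3.4, 13.7 and 10.7 CPM on the same days. EIR1 averaged 0.0799 ± 0.0331, 0.382 ± 0.157, 3.18 ± 0.917, 9.45 ± 1.45 and 13.9 ± 2.16 CPM on days 1, 2, 3, 4 and 5, so its level was still higher at each later day while its log2 gain was smaller after day 3. FTM1 (-2.54) was level to day 3, at 73.7 ± 14, 73.7 ± 10.8, 82.9 ± 48.3, 47.9 ± 15.2 and 16 ± 7.04 CPM on days 1, 2, 3, 4 and 5, and lower afterwards.

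**Figure D5:**
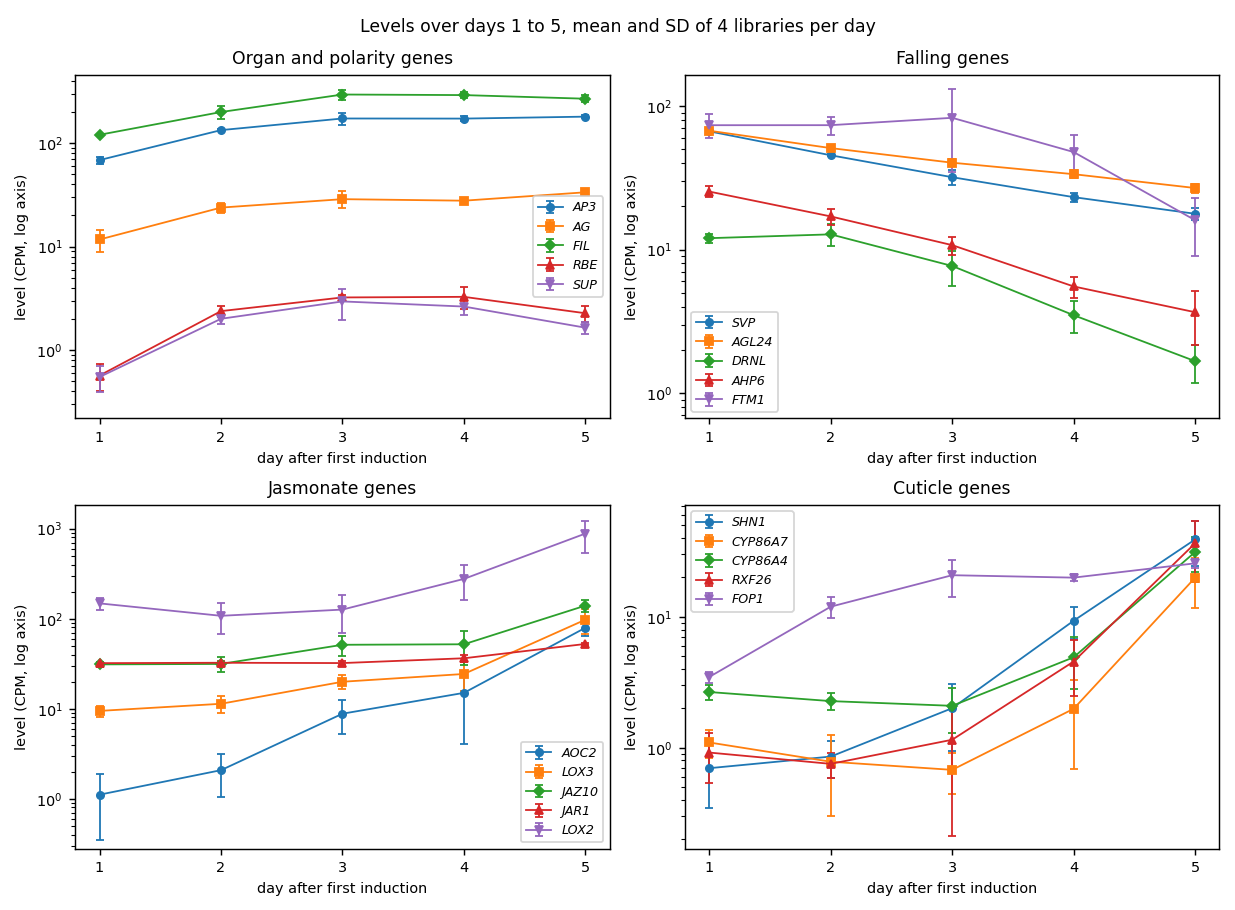
Mean level in CPM (vertical axes, log scale) over days 1 to 5 (horizontal axis), with error bars for the SD of 4 libraries per day. AP3, AG and FIL are nearly flat after day 3, SVP, AGL24 and AHP6 are lower at each day, and CYP86A7, CYP86A4 and RXF26 are low until day 3 and highest at day 5, whereas FOP1 reaches 20.8 CPM by day 3.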

How the data were processed

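RNA from inflorescences was sequenced in 2 batches, and each of the 24 samples has 2 runs. Values are expected counts per gene that the authors deposited, for 23069 genes with row totals of at least 10. The submitters' processing notes name FastQC, Trim Galore, Salmon 0.12.0, DESeq2 and TAIR10, but not which tool gave the counts or whether strand was used. Both runs of a sample were summed (they differed by a chi-square per degree of freedom of 1.059 to 1.222, against 3.513 to 59.829 for replicate pairs) and rounded. edgeR 4.0.16 in R 4.3.3 was fitted over all 24 samples with day as factor, TMM scaling and filterByExpr (min.count 10, min.total.count 15). Tests were of day 5 against day 1 and of the change after day 3 minus the change before day 3. The fit was also run on simulated data, but no outcome of that run is given here. Alternatives were DESeq2 1.42.0, other scalings, filters, samples, runs and a replicate block. Gene positions and promoters are from TAIR10.1 of RefSeq, in which 22915 genes matched. Members and lists were chosen with earlier results of these data known. Named genes were a core set of 27, the 10 largest rises and falls, up to 4 members of each list by smallest p and members against their list. The 5 largest values of either sign of the second test were added, among genes with a mean of at least 5 CPM on the higher of days 5 and 1. Further members were picked after their values were seen. Replicate numbers were not used to pair the samples in the main fit.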

Additional observations from a re-analysis of the deposited data

Results flagged for a closer look

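In 4 of 108 groups of 4 values examined, 1 library lay far from the other 3, and chance flags about 1 in 20 such groups. At day 5 replicate 1, STM was lowest at 52.9 CPM, against 73.2 to 77.3 CPM in the other libraries of that day, and RAP2.6 was highest at 77.3 CPM, against 47.9 to 51.3 CPM. At day 1, LEA7 was highest in replicate 3 at 0.324 CPM, against 0.0357 to 0.0726 CPM, and GA2ox4 was highest in replicate 4 at 7.98 CPM, against 6.04 to 6.35 CPM.

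Of the 381 genes in which the log2 change after day 3 differed from that before it by edgeR's test, 5 of each sign are given. They had the largest differences among named genes with a call and no overlap in day 5 against day 1. A mean of at least 5 CPM on the higher of these days was also required. SUP (-3.25) and RBE (-3.0) lay under that level and were left out. The genes given were thus picked for the size tested. The log2 change was lower after day 3 for EIR1 (-3.11, adjusted p = 0.000587), CYP709B2 (-2.89, adjusted p = 7.06e-06), FTM1 (-2.54, adjusted p = 0.014), AGL15 (-2.37, adjusted p = 1.48e-05) and FOP1 (-2.28, adjusted p = 1.69e-05). It was higher after day 3 for CYP86A7 (5.56, adjusted p = 0.000576), GLC (5.54, adjusted p = 0.000445), RXF26 (4.67, adjusted p = 0.00262), CYP86A4 (4.25, adjusted p = 0.000112) and PRP4 (3.78, adjusted p = 9.17e-05). Without replicate 2 on all days the calls of FTM1 (-1.70) and RXF26 (3.94) were lost, and without replicate 3 that of FTM1 (-2.53, adjusted p = 0.108).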

How the results depend on the processing

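Single genes kept their direction and side of the threshold in 1307 of 1342 values, with 33 calls lost, 2 gained and none reversed. Library totals in place of TMM gave 5952 falls and 36.8% of calls higher. DESeq2 gave 340 genes with a higher log2 change after day 3 than before it. With fewer genes tested, a mean of at least 10 CPM left 2796 rises and 2321 falls, 579 and 100 of them at least 2-fold. It left 81 and 95 genes with a higher and a lower log2 change after day 3. Batch 1 runs alone gave 115 and 111 of the last, at lower depth. A test against a 1.5-fold change gave 1606 rises and 398 falls (80.1% higher), and 55 and 36 genes for the change after minus before day 3 (60.4% higher). Leaving out 1 library or 1 replicate number gave 3474 to 4279 rises, 2449 to 3715 falls and 53.4% to 59.2% of calls higher. At least 2-fold were 1612 to 1745 rises and 388 to 463 falls. Leaving out 1 replicate number gave 28 to 204 genes with a higher and 41 to 157 with a lower log2 change after day 3 (40.6% to 56.5% higher). The 28 and 41 were without replicate 2, and the cause was not tested. The replicate block gave 4248 rises and 3633 falls, and 209 and 199 genes for the after-day-3 difference. A fit of days 1 and 5 alone gave 3930 rises and 3275 falls, and one without day 0 gave 4421 and 3681. With days 1 and 5 alone the calls of TFL1 (edgeR adjusted p = 0.0682) and SPL9 (edgeR adjusted p = 0.0864) were lost. In that fit 4 cytokinin genes and 2 organ polarity genes fell. Same-numbered samples of days 5 and 1 had correlations of -0.26 to 0.069 after the day means were taken out. Those with different numbers had -0.207 to 0.263. So few values, from 2 days, show no pairing by number but cannot exclude one. Flavonoid rises fell to 4 without replicate 2 and 5 without replicate 4 of all days, and transition rises to 3 without either. CLV3, INO and PUCHI lay under 1 CPM at day 5, so the sizes of their falls rest on few counts of that day. Summed over the day 5 libraries these were 15 for CLV3 and 13 for INO, whose calls held in all 8 fits without 1 library. An effect of depth was not tested.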

Other observations

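The genes given here lie outside the lists and were picked one by one after their values were seen, so they show nothing about a group. LTI78 (AT5G52310), a classic cold and drought marker, had 92.2, 226, 205 and 185 CPM at day 5, against 4.48, 5.1, 11.5 and 5.77 CPM at day 1 (log2 fold change 4.72, SE 0.66, edgeR adjusted p = 5.45e-06). RD26 (AT4G27410), a NAC factor of the same responses, had 123, 43.8, 34.5 and 44.3 CPM at day 5, against 2.33, 1.71, 2.19 and 2.18 CPM at day 1 (log2 fold change 4.86, SE 0.35, edgeR adjusted p = 4e-10). ABI5 (AT2G36270), a bZIP factor of abscisic acid signalling, stood at 29.5, 22.1, 28.3 and 27.5 CPM at day 5, against 3.75, 3.6, 4.46 and 5.51 CPM at day 1 (log2 fold change 2.63, SE 0.14, edgeR adjusted p = 7.8e-12). The days did not overlap in any of the 3, and day 5 replicate 1 was lowest for LTI78 and highest for RD26 and ABI5. The plasma membrane aquaporin gene RD28 (AT2G37180) had 118, 194, 146 and 181 CPM at day 5, against 5.35, 6.53, 11.2 and 6.35 CPM at day 1 (log2 fold change 4.44, SE 0.44, edgeR adjusted p = 4.21e-08).

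REM1 (AT4G31610), which encodes a B3-domain protein of reproductive meristems, had 39.9, 42.4, 48 and 45.2 CPM at day 5, against 127, 132, 117 and 118 CPM at day 1 (log2 fold change -1.49, SE 0.10, edgeR adjusted p = 1.62e-10). AT4G31620, a near neighbour on chromosome 4, had 21, 19.2, 17.4 and 18.5 CPM at day 5, against 103, 103, 108 and 98.7 CPM at day 1 (log2 fold change -2.44, SE 0.11, edgeR adjusted p = 8.9e-13). AGO5 (AT2G27880), an Argonaute gene, stood at 15.1, 11.1, 14.5 and 14.4 CPM at day 5, against 42.8, 47, 45.6 and 41.5 CPM at day 1 (log2 fold change -1.68, SE 0.11, edgeR adjusted p = 5.04e-11). In these 3 genes every day 5 library lay below every day 1 library.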
